A study of Homo sapiens with 14 samples.

Results

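The mRNAs of 10 enzymes of glycolysis were examined among the 6714 genes that the transcript profiles of this series listed. The members were taken by name: GAPDH, ENO1, PGK1, LDHA, LDHB, PKM, ALDOA, TPI1, PGAM1 and GPI. The rule for membership used the gene name and no measured value. Each was represented by its listed transcript of highest mean RPKM (reads per kilobase of transcript, scaled to the mapped reads of the library).

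Glycolysis is the cytosolic pathway that splits glucose into pyruvate and yields ATP and NADH. In the order of the reactions, GPI turns glucose 6-phosphate into fructose 6-phosphate, ALDOA splits fructose 1,6-bisphosphate, and TPI1 interconverts the resulting triose phosphates. GAPDH, PGK1, PGAM1 and ENO1 then carry the trioses to phosphoenolpyruvate, PKM makes pyruvate, and the LDHA and LDHB subunits of lactate dehydrogenase interconvert pyruvate and lactate. Their mRNAs are translated by free cytosolic ribosomes and are among the standard abundant messages of proliferating cells.

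The RNA came from K562, an established human chronic myelogenous leukemia cell line, and all groups shared that line. In icSHAPE, NAI-N3 (100 mM, 5 min) acylates the ribose 2'-hydroxyl of flexible nucleotides. In icLASER, NAz-N3 (1 M stock, 10 min of UV) marks the C8 position of purines that solvent can reach. Each reagent was applied inside cells (in vivo) and to isolated, refolded RNA (in vitro), with 3 and 2 libraries for icSHAPE and 2 and 2 for icLASER, beside 3 DMSO and 2 no-UV control libraries. The libraries of a group had been pooled into 1 profile before deposition, so the data hold 4 profiles, without replicate error for any value and without any test.

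A profile gives each transcript an RPKM and each nucleotide an enrichment score from 0 to 1. The filters on minimum coverage had been switched off when the scores were made, so a score of 0 can stand for no enrichment over the control or for few or no reads. The mean score over 1378 coding genes was 0.152 and 0.180 for icSHAPE in vitro and in vivo, and 0.165 and 0.166 for icLASER. These genes, treated in the same way, serve as the background for score values below. No read count accompanied a score, and the depth behind single scores is therefore unknown.

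ENO1 and GAPDH, the enzymes enolase and glyceraldehyde 3-phosphate dehydrogenase, had the highest levels. ENO1 stood at 250.9 and 359.5 RPKM in the icSHAPE profiles in vitro and in vivo, and at 392.0 and 343.0 RPKM in the icLASER profiles. GAPDH stood at 158.7, 242.5, 214.6 and 271.4 RPKM in the same order. These 2 mRNAs were above the other 8 in each profile.

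LDHB (106.9 to 148.4 RPKM), PGAM1 (96.1 to 151.7 RPKM) and TPI1 (96.0 to 125.2 RPKM) formed the next level, and their ranges over the profiles overlapped. LDHA (28.5 to 46.4 RPKM) and PGK1 (29.1 to 45.0 RPKM) overlapped almost completely. LDHB was above LDHA in each profile, as single transcripts out of 10 listed for LDHB and 22 for LDHA. The LDHB value came from an annotated retained-intron transcript and the PGK1 value from one without a defined coding sequence, while the full coding isoforms had means of 127.9 RPKM for LDHB and 22.6 RPKM for PGK1.

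ALDOA differed most between the reagents. It had 14.0 and 21.6 RPKM in the icSHAPE profiles and 51.3 and 77.2 RPKM in the icLASER profiles, a log2 ratio of icLASER to icSHAPE of 1.88 in vitro and 1.83 in vivo. These values came from a 538 nt transcript annotated as a fragment. The full coding isoform of ALDOA had 13.4 and 20.4 RPKM in icSHAPE and 44.6 and 53.1 RPKM in icLASER. GPI (10.2 to 19.7 RPKM) and PKM were lowest. The 4 PKM values were 8.30, 11.8, 20.002 and 15.5 RPKM.

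RPKM was higher in vivo than in vitro for 10 of 10 members in icSHAPE, with a median of 1.46-fold, from 1.11-fold for LDHB to 1.80-fold for GPI. The background median over 2304 coding genes was 1.07-fold, and 9 members lay above the upper quartile of that background (log2 0.25). The background took the highest coding transcript of each gene, whereas the members took the highest of any type, as for LDHB and PGK1. In icLASER the median was 0.892-fold beside 1.07-fold in the background, with 4 members higher and 6 lower. PGAM1 (0.737-fold), PGK1 (0.770-fold) and PKM (0.777-fold) were lowest, and ALDOA (1.504-fold) was highest. The ALDOA value came from an annotated fragment, and its full coding isoform rose less, from 44.6 to 53.1 RPKM. No member reached a 2-fold difference with either reagent, beside 0.13% of the background called higher and 0.391% called lower in icSHAPE, and 0.304% and 0.477% in icLASER. The members were thus higher together with one reagent and not with the other, and neither shift can be set against replicate error.

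Of 25 other genes of glycolysis and of glucose and lactate transport that were looked up, 8 were listed, among them HK1, PFKP, ALDOC, PKLR, SLC2A1, SLC2A3 and SLC16A1. The lowest listed RPKM ranged from 5.01 to 5.13 over the profiles, so a gene that was not listed may still be expressed below that level. Hexokinase HK1 (17.5 and 29.3 RPKM), the pyruvate kinase gene PKLR (29.7 and 48.4 RPKM) and phosphofructokinase PFKP (8.09 and 11.8 RPKM) were also higher in vivo in icSHAPE. The lactate carrier SLC16A1 was not, at 19.1 and 18.6 RPKM. The PKLR transcript exceeded the PKM transcript in each of the 4 profiles, with 29.7 to 49.2 RPKM. The profiles listed 18 transcripts of PKM and 3 of PKLR, so these values do not compare the totals of the genes. Region scores were available for 3 of these genes. In icLASER their 3' UTRs were higher in vivo in 3 of 3, of which SLC16A1 (by 0.0747) was past 0.05, a size that 54% of the background genes reached. The coding sequence of SLC16A1 differed by 0.0899 in icSHAPE and by -0.0580 in icLASER, while those of PKLR and SLC2A1 stayed under 0.05 with both reagents.

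Several members share sequence with transcripts of other annotated genes, so their RPKM and scores are uncertain where reads could be split. Copies elsewhere in the genome and overlapping genes were not told apart. Of the 30 nt stretches of the coding sequence, 100% of those of PGAM1, 96.8% of those of ALDOA, 92.9% of those of LDHB and 66.1% of those of GAPDH also occurred in transcripts of other annotated genes. ENO1 (18.8%), PKM (21.7%) and GPI (9.95%) shared the least. In the 3' UTR the highest shares were 100% for ALDOA, 49.9% for PGAM1 and 36.5% for GPI. The GPI share was taken over a 3' UTR of 2377 nt in a reference transcript of 4125 nt. The deposited GPI transcript had 2210 nt, so most of that 3' UTR lay outside it and had no scores. The share within the scored part of the GPI 3' UTR was not tested. The members also share reads among their own isoforms: the profiles listed 3 transcripts of PGAM1 and 22 of LDHA.

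For PKM, both mutually exclusive exons of 167 nt that tell its isoforms apart were scored. The M2 exon (GRCh38 chr15:72202454-72202620, minus strand, coding) lies in the most abundant listed transcript, and the M1 exon (chr15:72203022-72203188, coding) in a transcript at 6.07, 8.54, 14.4 and 11.8 RPKM. Reads of the exons that both forms contain cannot be told apart by form, so the RPKM values do not give an isoform ratio. In icSHAPE the M2 exon averaged 0.146 (in vitro) and 0.142 (in vivo), or 0.126 and 0.151 in the second listed transcript that holds it. The M1 exon averaged 0.0585 and 0.1004. In icLASER the transcripts given first had the other order in vitro, with 0.110 for the M2 exon and 0.132 for the M1 exon. In vivo they had 0.0959 and 0.0980. In the other listed transcripts the M1 exon ranged from 0.0884 to 0.159 in vitro and from 0.0551 to 0.0855 in vivo. The order in icLASER thus depended on the transcript.

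Scores by region were taken from annotated coding transcripts. By the rule set for them (the coding transcript of highest RPKM whose length equals that in GENCODE 44), 8 members had a transcript, of which those of ENO1, GPI and ALDOA were annotated fragments, and PGK1 and PGAM1 had none. The reference isoform of each member was therefore added after the values were seen (MANE Select for 8 members, the full coding transcripts of ALDOA and TPI1). For 7 members it was laid on the reference by the offset at which scores and base identity fitted best. The first set has n up to 8 and the second n up to 10. Medians by region are given for both, and single members, codons, windows and portions on the reference isoforms unless stated otherwise.

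In icLASER, the 5' UTRs of the members scored lower in vivo. The median difference of the mean score, in vivo minus in vitro, was -0.0879 over 5 members with a scored 5' UTR and -0.110 over 9 reference isoforms, beside -0.0407 over 1043 background genes. All 5 and 7 of 9 were lower by at least 0.05, the size counted as called, beside 45.1% of the background. None was higher, beside 7.86%.

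PGAM1, the phosphoglycerate mutase mRNA, had the largest fall, from 0.465 to 0.317 over its 5' UTR. LDHB went from 0.363 to 0.225 and ENO1 from 0.339 to 0.219. PKM (0.295 to 0.183), PGK1 (0.348 to 0.238), LDHA (0.208 to 0.119) and GPI (0.188 to 0.0995) were also lower by more than the called size. ALDOA (0.242 to 0.194) and GAPDH (0.19997 to 0.161) were lower by less. Zero scores moved with this difference: the share of 5' UTR nucleotides at 0 was higher in vivo in 9 of 9 isoforms (median 8.70% in vitro and 28.9% in vivo). Over nucleotides above 0 in both conditions, a choice made after seeing the data, the median was -0.128, with 9 of 9 below 0.

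The 30 nt of the PGAM1 5' UTR with the lowest icLASER difference among the 5' UTR windows are shown because they lie close to the annotated 5' end, from nucleotide 9 to 38. Capitals mark nucleotides with an in vitro score of at least 0.5 (GRCh38 chr10:97426199-97426228, plus strand, 5' UTR).
PGAM1 5' UTR: gcGcgGGAGccGGAcTGAGcGGTGCGAgCG
The mean icLASER score of this window went from 0.683 to 0.325, with 22 nucleotides lower and 1 higher in vivo, and 20 of its 30 nucleotides are purines. Its icSHAPE difference was 0.0721, so the reagents moved in opposite directions over the same nucleotides.

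In the 3' UTRs, icLASER scores were higher in vivo. The median difference was 0.0808 over 6 members and 0.0787 over 10 reference isoforms, beside 0.0554 in the background. All 6 and 8 of 10 were called higher, beside 54% of 1161 background genes, and 0.775% of the background was called lower. On the reference isoforms GAPDH (0.110 to 0.256) and GPI (0.0482 to 0.176) had the largest rises. On its equal-length transcript the GAPDH rise was 0.0920, below that of LDHB (0.102). LDHB (0.0877 to 0.190) and ENO1 (0.0789 to 0.181) followed. PGK1, with 0.121 and 0.122 over a 3' UTR of 3465 nt, had nearly equal means, and 65.1% and 72.5% of its scored 3' UTR nucleotides were at 0 in vitro and in vivo.

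The coding sequences lay between the UTRs. The icLASER medians were -0.0166 (8 members) and 0.00612 (10 reference isoforms) beside 0.000209, and no member was called, beside 7.27% of the background called higher and 7.71% lower. LDHA was lowest, from 0.231 to 0.189.

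In icSHAPE the UTR and coding differences were smaller. The 5' UTR medians were -0.00435 and 0.00337, beside 0.0233 in the background, where 30.5% of genes were called higher and 12.9% lower. LDHA, from 0.199 to 0.255, was the only reference isoform called, and its share of nucleotides at 0 went from 54.1% to 5.10%. Over nucleotides above 0 in both conditions the LDHA difference on its equal-length transcript was 0.00959. The TPI1 5' UTR was at 0 throughout the 31 nucleotides it had scored. In the coding sequence the medians were 0.00959 and 0.00714 beside 0.0269, with no member called, beside 21.5% called higher and 1.89% lower. The share of coding nucleotides at 0 was lower in vivo in 10 of 10 reference isoforms (median 49.2% in vitro and 21.6% in vivo). Over coding nucleotides above 0 in both conditions their median was -0.0444 beside -0.0345 in the background, with 10 of 10 below 0. Of these, 5 were called lower and 0 higher, beside 39.3% and 7.33% of the background.

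The icSHAPE 3' UTRs were higher in vivo in 6 of 6 and 10 of 10 members, with medians of 0.0422 and 0.0348 beside 0.0279. At the called size these were 2 of 6 and 4 of 10, beside 25.4% of the background higher and 3.02% lower. The 4 were ENO1 (0.0938 to 0.157), PKM (0.134 to 0.192), LDHB (0.101 to 0.158) and TPI1 (0.138 to 0.188). The share of 3' UTR nucleotides at 0 was lower in vivo in 10 of 10 (median 53.2% in vitro and 25.9% in vivo). Over nucleotides above 0 in both conditions the reference isoforms had a median of 0.00876, with 7 above and 3 below 0. After each score was divided by the mean of its profile, 7 of 10 were higher and none was called. The same scaling put 9 of 10 coding sequences and 8 of 10 5' UTRs lower in vivo, so the direction of the icSHAPE differences there turned with the scaling. On its next coding transcript the TPI1 3' UTR difference was -0.00202. What part the zero scores had in the icSHAPE differences was not tested.

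In vitro, the 3' UTR scored below the coding sequence of the same mRNA in 6 of 6 and 10 of 10 members with both reagents. The medians were -0.0424 (equal-length transcripts) and -0.0670 (reference isoforms) for icSHAPE, and -0.0811 and -0.0942 for icLASER. Of the equal-length transcripts, 2 of 6 were called lower in icSHAPE and 5 of 6 in icLASER. Of the reference isoforms, 6 of 10 were called lower in icSHAPE (57.2% of the background, with 3.19% higher) and 10 of 10 in icLASER (67.2%, with 3.53% higher). In vivo the icSHAPE median was -0.00725 over the equal-length transcripts, with 2 of 6 called lower, and -0.0404 over the reference isoforms, with 4 of 10 called lower (59.4% of the background, with 1.72% higher). In icLASER the reference isoforms had a median of -0.0322 in vivo, with 8 of 10 below 0, 1 called lower (26.2% of the background) and 1 called higher (23.3%). On the equal-length transcripts that median was 0.000950, so its sign differed between the sets, which differ in members as well as in isoforms.

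The 5' UTR scored above the coding sequence in icLASER in vitro in 5 of 5 equal-length transcripts (median 0.0527, 3 called higher) and in 8 of 9 reference isoforms (median 0.116, 6 called higher beside 57.7% of the background and 14.6% lower). In vivo 1 of 5 equal-length transcripts did (median -0.0343, 1 called lower). Of the reference isoforms 5 of 9 did (median 0.00382, 2 called higher and 2 lower beside 38.8% and 25%). The sign of the median in vivo thus differed between the sets, which differ in members as well as in isoforms. PGAM1 kept the largest lead, 0.264 in vitro and 0.117 in vivo. In icSHAPE the equal-length transcripts had medians of 0.0557 in vitro and 0.0262 in vivo. The reference isoforms had 0.0434 in vitro, with 4 of 10 called higher and 1 lower (38.1% and 21.8% of the background), and 0.0439 in vivo, with 4 higher and 2 lower (32.6% and 19.8%). TPI1, whose 31 scored 5' UTR nucleotides were all at 0, is in both sets. It was the member called lower in vitro (-0.182) and was among those called lower in vivo (-0.191).

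The icLASER difference ran along the whole length of the mRNAs. When the scored nucleotides of each reference isoform were cut into 10 equal portions, the median over the members went from -0.0786 in portion 1 through -0.0248 in portion 3 and 0.0136 in portion 5 to 0.141 in portion 10. Portion 1 was lower in vivo in 10 of 10 members and portion 10 was higher in 10 of 10. The last minus the first portion ranged from 0.140 for ALDOA to 0.320 for TPI1, with a median of 0.207 beside 0.151 over 1373 background genes.

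The slope was also present within the coding sequence alone. Cut into 3 equal portions, the coding sequence had a median difference of -0.0506 in portion 1 and of 0.0392 in portion 3. The last portion exceeded the first in 10 of 10 members, by 0.0178 for PGAM1 up to 0.177 for LDHB, beside a background median of 0.0655. In icSHAPE the last minus the first portion had a median of 0.00154, with 5 members above and 5 below 0. The icLASER region differences above therefore cannot be told apart from position along the transcript.

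At the 3' end the icLASER difference was largest. Over the last 50 scored nucleotides the median was 0.216 beside 0.145 in the background, and 9 of 10 members were higher by at least 0.05, beside 82.8% of the background. TPI1 (0.306), GPI (0.290) and ENO1 (0.247) were highest, and LDHA had a difference of 0. From 50 to 100 nt before the last scored nucleotide the median was 0.123 beside 0.0971, with 10 of 10 called higher beside 72.5% of the background. The scores ended short of the annotated 3' end in each member. For GPI they covered 262 nt of the 3' UTR, which has 2377 nt in the reference transcript of 4125 nt. The deposited GPI transcript had only 2210 nt, so most of that reference 3' UTR lay outside it. The first 50 nt after the stop codon had a median of 0.0236, with 7 members above and 3 below 0. On the other side of the mRNA, the 50 nt before the start codon (-0.0756, 9 of 9 below 0) and the first 50 nt of the coding sequence (-0.0894, 9 of 10 below 0) did not differ in direction.

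The 30 nt windows with the largest icLASER rise show the same placement, since 9 of 10 members had theirs in the 3' UTR. The windows of TPI1 and GPI are shown as examples. Capitals mark nucleotides with an in vivo score of at least 0.5. Both lie in 3' UTRs on the plus strand of GRCh38, TPI1 at chr12:6870874-6870903 and GPI at chr19:34400265-34400294.
TPI1 3' UTR: ctTtttGaGgcaGCTATAtaAatGAtCAtT
GPI 3' UTR: acttTtctGacccaTGTtCaCgttgttcaC
TPI1 went from 0.212 to 0.573 and GPI from 0.0371 to 0.384. The icSHAPE differences of the same nucleotides were 0.0231 and 0.0360. Neither window occurred as a whole in a transcript of another annotated gene.

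The largest icLASER falls outside the 5' UTRs were in LDHA and PGK1. The PGK1 window (chrX:78128144-78128173, plus strand, 3' UTR) went from 0.443 to 0 with all nucleotides at 0 in vivo. Of its nucleotides 16 were lower in vivo and the rest were at 0 in both conditions. Capitals again mark in vitro scores of at least 0.5.
PGK1 3' UTR, fall: ctAtGtGCTTaAAGACGtGataGagggaaT
The icSHAPE difference over these nucleotides was 0. In icSHAPE 85.6% and 74.6% of the scored nucleotides of this 3' UTR were at 0 in vitro and in vivo. Since a 0 can stand for few or no reads, neither difference shows whether the stretch changed.

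LDHA and LDHB, the paralogous lactate dehydrogenase subunits, both scored lower in vivo over one stretch of their coding sequences. In icSHAPE they held the 2 lowest windows among the 10 members, and PKM held the third. In the list, capitals mark in vitro scores of at least 0.5. The LDHA windows are coding, on the plus strand of chr11, at 18403706-18403735 (icSHAPE) and across an intron between 18403011 and 18403720 (icLASER). The LDHB window is coding, on the minus strand of chr12, and spans an intron between 21638451 and 21641961. The PKM window is coding, at chr15:72208725-72208754 on the minus strand.
LDHA, icSHAPE: GtGGAATGAaTGTTGCtGGTgtCtcTCTGA
LDHA, icLASER: GtGTGcctGTatGGAGtGGAATGAaTGTTG
LDHB, icSHAPE: GaCTCAAGTGtggctgTGtGGAgTgGTgTg
PKM, icSHAPE: CAggATgttGATAtgGTGTTtgcGtCaTTC
The LDHA window went from 0.687 to 0.220 in icSHAPE, and its icLASER difference was -0.353. The LDHA icLASER window went from 0.753 to 0.367. The LDHB window went from 0.597 to 0.174 in icSHAPE, with 29 nucleotides lower and 1 higher, and its icLASER difference was -0.119. The PKM window went from 0.632 to 0.218 in icSHAPE, with -0.0433 in icLASER.

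The LDHA windows cover codons 202 to 212 (icSHAPE) and 197 to 207 (icLASER), and the LDHB window covers codons 196 to 206. In a global alignment the 2 coding sequences were identical at 68.5% of 999 aligned nucleotides and had no stretch of 30 nt in common. The lowest icSHAPE windows of LDHA and LDHB shared 8 aligned nucleotides. Over the LDHB nucleotides aligned with the LDHA icSHAPE window, the LDHB score went from 0.494 to 0.165.

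Over 110 aligned nucleotides around these windows (a stretch set after the values were seen, so a description), LDHA averaged 0.379 in icSHAPE on refolded RNA and 0.190 in cells. LDHB averaged 0.447 and 0.158. Over the rest of the coding sequence the same means were 0.182 and 0.218 for LDHA and 0.184 and 0.230 for LDHB. The stretch was thus above the rest in vitro and below it in vivo in both mRNAs. In icLASER the stretch had 0.444 and 0.321 in LDHA and 0.379 and 0.358 in LDHB, above the rest of the coding sequence (0.173 to 0.205) in both conditions. Along all aligned nucleotides the differences of LDHA and LDHB had a Pearson r of 0.155 in icSHAPE and 0.138 in icLASER, a description over nucleotides that are not independent. The LDHB window also occurred in 1 other annotated gene, and the LDHA windows in none.

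The largest icSHAPE rises were in PGK1 (chrX:78128782-78128811, plus strand, 3' UTR), PKM (chr15:72199593-72199622, minus strand, 3' UTR) and GPI (chr19:34399993-34400022, plus strand, coding). Capitals mark in vivo scores of at least 0.5.
PGK1, rise: GGTtTacaCatGatCaaAaaggagTATAcA
PKM, rise: ctgtCcCaccCCCTtcccccagccCATCCA
GPI, rise: tCAtCAACTtCAtcAagcagcagcgcgagg
PGK1 went from 0.0333 to 0.387 (13 nucleotides higher and 1 lower), PKM from 0.0932 to 0.394 (12 and 1) and GPI from 0.0551 to 0.334 (23 and 2). The remaining nucleotides of each window had equal scores in both conditions. Unlike the icLASER rises, those of icSHAPE were not placed mainly in one region: 4 of 10 members had theirs in the 3' UTR, 4 in the coding sequence and 2 across the stop codon.

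The start codons of the members differed from one another in icLASER. The 15 nt before and the 6 nt after the AUG are shown for 5 members with high or low values, picked after the values were seen, with the start codon in capitals. ENO1 lies on the minus strand of chr1 across an intron between 8874900 and 8878585, and PKM on the minus strand of chr15 across an intron between 72219089 and 72231117. PGK1 (chrX:78104326-78104349), ALDOA (chr16:30067240-30067263) and GPI (chr19:34365252-34365275) lie on plus strands.
ENO1 start: ggctagaagttcaccATGtctatt
PGK1 start: agctgtatttccaaaATGtcgctt
PKM start: aggacctcagcagccATGtcgaag
ALDOA start: gctactaccagcaccATGccctac
GPI start: ccttctagtcccgccATGgccgct
At the G of the start codon, ENO1 and PGK1 had an icLASER score of 1 in both conditions, and PKM had 1 in vitro and 0.795 in vivo. ALDOA had 0.014 and 0, and GPI had 0.146 and 0. LDHB had 0.345 and 0.118, and GAPDH had 0.213 and 0.036. Over the 9 members with a scored start codon the mean at this G was 0.429 in vitro and 0.341 in vivo, beside 0.479 and 0.342 in the background. The mean of the 10 nt on each side was 0.209 and 0.122.

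The A of the start codon was low in icLASER, with a mean of 0.121 in vitro and 0.0232 in vivo over the 9 members. In icSHAPE the highest value lay on the nucleotide before the AUG, with means of 0.505 in vitro and 0.435 in vivo, against 0.245 and 0.182 at the A. In the background that nucleotide averaged 0.539 and 0.615. GAPDH and PGK1 had a score of 1 at that nucleotide in both conditions. The start codon of TPI1 was not scored.

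In icSHAPE the last nucleotide before the stop codon averaged 0.574 in vitro and 0.505 in vivo over the 10 reference isoforms, beside 0.221 and 0.289 in the background. Over the 6 equal-length transcripts it averaged 0.361 and 0.351. GAPDH, ALDOA, PGAM1 and GPI had a score of 1 there in vitro, and LDHB and PKM had 0. In icLASER the same nucleotide averaged 0.369 and 0.384, with scores of 1 in vivo in GAPDH, ENO1 and PGAM1.

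The nucleotide to which a score belongs is uncertain by 1. On the transcripts of equal length, icSHAPE scores of the members differed by base more when sorted by the next nucleotide downstream (A 0.272, U 0.226, C 0.0915 and G 0.0838 in vitro) than by the scored nucleotide itself (A 0.215, U 0.174, G 0.149 and C 0.125). In icLASER, G stood out at the scored nucleotide (0.347 in vitro and 0.325 in vivo, against 0.163 and 0.166 for A), while A led at the next one (0.278 and 0.280). The background had the same order in each case. Values at single nucleotides above, such as those of the start codon, are given at the nucleotide as deposited.

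By codon position, the first nucleotide had the highest and the second the lowest median over the members. Medians over 8 members in icSHAPE in vivo were 0.243 at position 1, 0.138 at position 2 and 0.184 at position 3. Position 3 was below position 1 in 8 of 8 members in both icSHAPE profiles and in 7 of 8 in both icLASER profiles. At the called size, 4 were lower in icSHAPE in vitro (22.7% of the background) and 7 in vivo (40.8%), and in icLASER 3 in vitro (20.9%) and 2 in vivo (19.2%). None was called higher, beside 2.26% and 2.4% of the background in icSHAPE and 4.08% and 5.75% in icLASER. G made up 37.4% of the nucleotides at position 1 and 18.1% at position 2 in these transcripts. When each score was given to the nucleotide upstream, position 3 came out above position 1 by a median of 0.0791 to 0.106 in the 4 profiles, so this result holds only for the positions as deposited. With equal weight for the 4 bases the icLASER medians shrank to -0.00522 in vitro and -0.00400 in vivo, while those of icSHAPE were -0.0492 and -0.0619.

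The profiles of the members were more alike between conditions than those of most coding genes. Over nucleotides of a transcript, which are not independent, the median Pearson r between in vivo and in vitro was 0.631 in icSHAPE and 0.693 in icLASER, beside 0.510 and 0.606 over 1377 background genes. The members were taken here as their highest transcript of any type, the background genes as coding transcripts. GAPDH (0.790 and 0.821) and ENO1 (0.788 and 0.808) were highest, and PGK1 (0.490 and 0.515) was lowest. Between the reagents the medians were 0.441 in vivo and 0.437 in vitro, beside 0.370 and 0.379. ENO1 and GAPDH were also the members of highest RPKM, and the part of depth in r was not tested.

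Nucleotides reactive to both reagents (score of at least 0.5 in each) were 4.88% of 13837 nucleotides in vivo (95% Wilson interval 4.53% to 5.25%) and 4.45% of 13872 in vitro (4.12% to 4.80%). The intervals take nucleotides as independent and cover counting error only. The share was a median of 3.28 times in vivo and 3.45 times in vitro what independent reactivity would give, beside 2.96 and 3.14 in the background. LDHB in vitro was the exception at 9.84 times, on the 678 nt retained-intron transcript with its highest RPKM, where r between the reagents was 0.822.

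Against structures predicted by RNAfold, icSHAPE scores were higher at unpaired than at paired nucleotides in 8 of 8 members, with medians of 0.0802 in vitro and 0.0828 in vivo. In icLASER the medians were 0.0196 and 0.00540, with 6 and 5 of 8 members above 0. With the span of pairs limited to 150 nt, 7 of 8 were above 0 in icSHAPE in vivo and the medians were 0.0771 and 0.0701 in icSHAPE.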

How the data were processed

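The authors deposited 4 pooled profiles from 14 K562 libraries (poly(A) RNA). Per the submitters' processing notes and the study's methods, reads were trimmed with Trimmomatic, aligned with Bowtie2 to the Ensembl 88 GRCh38 transcripts and turned into enrichment scores with the icSHAPE pipeline, replicates combined and its minimum coverage filters removed. Deposited RPKM values are per transcript, normalised by length and mapped reads. The deposited score of each nucleotide is enrichment over the control scaled from 0 to 1. Unscored nucleotides were left out. Because isoforms share reads and all replicates were pooled, no replicate error, p-value or paired comparison exists.

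Transcripts were matched to GENCODE 44 by identifier, and 15325 of 20512 had equal length. Regions needed 20 nucleotides scored in both conditions, correlations 100. Reference isoforms whose length differed were placed by the offset of best fit between scores and bases. In a check, 97 of 100 transcripts padded by a known offset were recovered. The 3 missed had a margin of at most 0.0241 over the next offset, against at least 0.268 for the members. Base results were taken from unplaced transcripts. The region differences, the codon positions and the correlation were tested on simulated data, which did not model the zero scores. The other measures were not tested in this way. The software was Python 3.11.15, numpy 2.4.6 and ViennaRNA 2.7.2.

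All members are named by rule, and windows are the 3 lowest and 3 highest per reagent, of which 1, the highest of icLASER, is not reported here. The start and stop codons, the equal portions, the LDHA and LDHB alignment and the reference isoforms were described after values were seen. Members and lists were chosen with earlier results of these data known. Alternatives covered the score summary, the scaling, the isoform, the bases, the region edges and a shift of 1 nucleotide.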

Additional observations from a re-analysis of the deposited data

Results flagged for a closer look

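The 5' UTR of LDHA moved in opposite directions with the reagents on its equal-length transcript. Its mean score was higher in vivo by 0.0954 in icSHAPE and different by -0.0879 in icLASER. It stands here because the effects of the same contrast had opposite signs, each past 0.05. Over nucleotides above 0 in both conditions the icSHAPE value was 0.00959. With 1 pooled profile per condition, the difference between the reagents was not tested.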

How the results depend on the processing

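Of 134 alternative values for the main results, 118 stayed within 0.05 (scores and r) or 1.5 times (RPKM and overlap ratio) of the reported value, 10 moved further and 6 reversed. Of the 118, 12 had the other sign, and both values lay within 0.05 of 0: these were medians of the icSHAPE 5' UTR and of both coding sequences between conditions, and of the UTRs against the coding sequence in vivo. Of 107 values for single members, 94 stayed, 12 moved and 1 reversed. Positions above 0 and reference isoforms were chosen after seeing the data.

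With each score given to the nucleotide upstream, codon position 3 minus position 1 became 0.0791 and 0.0976 in icSHAPE (in vitro and in vivo) and 0.0997 and 0.106 in icLASER, the lead of G in icLASER became -0.0305 and -0.0272, and the lead of A in icSHAPE in vivo 0.00141. Given to the nucleotide downstream, the lead of G became -0.0394 and -0.0428 and the lead of A 0.150 and 0.199. With A and G alone the icLASER 5' UTR median was -0.165. The icLASER lead of the 5' UTR over the coding sequence in vitro was 0.0527 on equal-length transcripts and 0.116 on reference isoforms. Spearman rho between conditions was 0.575 in icSHAPE and 0.579 in icLASER, and r between the reagents in vitro was 0.378 without positions at 0 in both. The next coding transcript of TPI1 gave -0.00202 for its icSHAPE 3' UTR. The cause was not tested in any case.

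No paired analysis was possible because the profiles pool the replicates of each group, and leaving out a replicate was not run for the same reason. No read counts accompany the scores, so the limit set by depth is unknown.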
